A study of Mus musculus with 18 samples.

Results

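Efficiently spliced inserts are the reporter inserts whose RNA was read almost entirely in its spliced form in control cells. An insert was included when the RNA table listed exactly 1 spliced form for it and its number lay outside 12001 to 12500. It also needed a mean of at least 20 genomic DNA (gDNA) reads over 9 gDNA libraries and at least 60 RNA reads over the 3 siNT cultures. Finally, at least 80% of those siNT RNA reads had to be spliced. Of 16461 inserts, 2259 had 1 spliced form listed, 1703 met every condition but the last, and 362 met all of them. The members were thus chosen by their spliced share and RNA reads in siNT, and their siNT values are a description of that choice. Free of that choice by siNT reads are the direct comparison of siZC3H4 with siWDR82, and RNA from a siNT culture left out of it. Neither is free of the gDNA minimum, which was taken over all 9 gDNA libraries.

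INSERT-seq places a pool of DNA sequences at a single genomic site ahead of a reporter and counts, for each insert, the RNA made from it and its gDNA. The inserts lay ahead of mKate2, where the antisense RNA upstream of Oct4 is made, in female mouse ES cells (embryonic stem cells) with a CAST/129 hybrid background. Oct4 is encoded by Pou5f1, which RefSeq places on chromosome 17 from 35506032 to 35510777 of GRCm38.p6, the assembly of mm10. The sources used here give no coordinate for the insertion. All cells carried Oct4C::TagBFP2(129), Oct4ua157::INSERT-seqlibrary(129) and Oct4ua172::mKate2(129). The 3 groups received a non-targeting siRNA (siNT), an siRNA against WDR82 (siWDR82) or an siRNA against ZC3H4 (siZC3H4). Each group had 3 biological replicates with an RNA and a gDNA library per replicate, 18 libraries in all. The dose was 30 nM, although siWDR82 replicate 2 is labelled 31 nM and replicate 3 is labelled 32 nM. The cells were pools in which different cells carry different inserts, so fewer cells with an insert and less RNA per cell are separated only as far as the gDNA reads measure the former. Because only this locus was amplified, neither the depletion of WDR82 or ZC3H4 nor any marker of the cell type was measured.

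Splicing removes an intron from a transcript and joins the flanking exons, and recognition of a splice site early in a transcript is known to protect it from premature termination. WDR82 and ZC3H4 form the Restrictor complex, which attenuates RNA polymerase II early in transcription, mainly on noncoding RNAs such as the antisense RNAs of promoters. The upstream antisense RNA of Oct4 is a transcript of that kind.

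The tables identify inserts by number alone and pair none with a sequence, a gene or its splice sites, so no insert sequence is shown. RNA libraries held 32173068 to 52840375 insert reads and gDNA libraries 4584881 to 11510602. Reads were amplified without molecular identifiers, so counting intervals cover counting error only. The members had a median of 6447 siNT RNA reads over 3 cultures (lowest 63) but a median mean gDNA count of only 172.7, against 432.2 for the 15364 inserts that could be tested. RNA reads were present in all 9 libraries for 342 members, while 56 members had 0 gDNA reads in at least 1 library. By these medians gDNA was the scarcer count, although for some members, such as sequence_12787 the lowest by siNT level, it was the RNA.

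The members were few, but they gave much of the spliced RNA of the whole library of inserts. In siNT they made up 0.968 ± 0.19% of gDNA reads and 3.40 ± 0.24% of RNA reads (SD, n = 3). They held 36.8%, 38.8% and 39.7% of all spliced insert reads in the 3 siNT cultures, and 0.174%, 0.193% and 0.201% of all unspliced reads. With siWDR82 they held 38.2 ± 1.6% of all spliced reads and with siZC3H4 37.8 ± 0.87%, so this share overlapped between the groups. Their share of all RNA reads was 1.75%, 1.86% and 2.20% in the siWDR82 cultures, and 2.04%, 2.57% and 2.47% in the siZC3H4 cultures. Every knockdown culture was therefore below every siNT culture, where the share was 3.13% to 3.57%.

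The siNT spliced percent of the members had a median of 95.9, with quartiles of 90.8 and 98.99. For 40 members every siNT read was spliced, 203 members had 95% or more, and 80 members lay between 80% and 90%. Just inside the limit were sequence_13748 at 80.01% and sequence_12876 at 80.11%. Just outside it were sequence_12857 at 79.77% and sequence_10686 at 79.70%, which are not members.

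Members were concentrated in part of the insert numbering, a property the rule used only to leave out 12001 to 12500. Inserts 12501 to 16461 contributed 284 members, or 34.4% of the 826 inserts there that met the other conditions. Inserts 1 to 12000 contributed 78, or 8.89% of 877. The densest stretches were 12501 to 13000 with 152 members and 13251 to 14000 with 113. The sources used here do not say what kinds of sequence these numbers stand for.

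The level of an insert was taken as log2 of RNA minus log2 of gDNA, each in CPM (scaled to the insert reads of its library) plus 0.5, so that 0 means RNA in proportion to gDNA. Total RNA is the sum of spliced and unspliced reads. In siNT the median level of total RNA over the members was 1.23, 1.54 and 2.00 in the 3 cultures. All inserts tested had a median of -0.83 ± 0.058 and the 384 partly spliced inserts (20% to under 80% spliced in siNT) a median of -0.42 ± 0.24. The members thus lay well above the other inserts in every siNT culture. Of the 362 members, 333 lay at or above the median of all inserts and 218 (60.2%) at or above the 90th percentile.

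The members also differed widely among themselves. Between the 5th percentile (-1.49) and the 95th (5.14) their mean siNT levels spanned 98.7-fold, and 301 of 362 were above 0. The highest was sequence_13642, with levels of 6.64, 8.18 and 9.11 but only 9, 2 and 0 gDNA reads. The next, sequence_12550, had levels of 4.85, 8.41 and 10.11, on 240, 16 and 2 gDNA reads. Both ranked at the top with very small gDNA counts in some siNT cultures. The siNT RNA reads were 27467, 26888 and 33970 for sequence_12550 and 5683, 8045 and 12565 for sequence_13642. The lowest was sequence_12787 at -4.72, -4.16 and -5.09, with 1, 45 and 39 RNA reads on 153, 313 and 522 gDNA reads. The median SD of a member between siNT cultures was 1.06, against 0.73 for all inserts tested.

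With either siRNA the total RNA of the members over gDNA was lower than in siNT, and their advantage over other inserts became smaller. The median level was 0.66, 0.71 and 0.97 in the siWDR82 cultures, and 0.42, 0.45 and 0.82 in the siZC3H4 cultures. All 6 knockdown cultures were below the lowest siNT culture (1.23). The mean over cultures differed from that of siNT by -0.81 for siWDR82 and -1.03 for siZC3H4. Over all inserts tested the medians moved the other way, from -0.83 in siNT to -0.45 ± 0.034 and -0.47 ± 0.050. The members at or above the 90th percentile of all inserts numbered 218 in siNT, 175 (48.3%) with siWDR82 and 141 (39.0%) with siZC3H4. The spread among members was also smaller, with an interquartile range of 2.36 in siNT, 1.94 with siWDR82 and 1.71 with siZC3H4. Single members also varied less between cultures, with a median SD of 1.06 in siNT, 0.69 with siWDR82 and 0.76 with siZC3H4. The part of this variation between cultures in the wider siNT range was not tested.

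In the edgeR fit over all 15364 inserts, the median log2 change of the members in total RNA over gDNA was -1.05 with siWDR82 and -1.18 with siZC3H4, against 0.062 and 0.061 for all inserts. The change was below 0 for 309 of 362 members with siWDR82 and for 316 with siZC3H4. Both comparisons share the siNT libraries. The partly spliced inserts had medians of -0.57 and -0.44, and the 957 rarely spliced inserts (under 20%) -0.23 and -0.12. The 13122 tested inserts without a spliced form listed had medians of 0.15 and 0.14. These differences between classes were not tested, and the classes were themselves cut on siNT reads.

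Few single members passed the threshold of an edgeR adjusted p under 0.05. With siWDR82, 2 members were called lower and 0 higher (background, the share of all inserts called, 0.111% lower and 0.586% higher). At an unadjusted p under 0.05 there were 64 lower and 3 higher (background 5.67% and 7.08%). With siZC3H4, 1 was called lower and 0 higher (background 0.026% and 0.325%), with 87 lower and 4 higher at an unadjusted p under 0.05 (background 3.53% and 5.86%). All 3 siWDR82 cultures lay below all 3 siNT cultures for 73 members and above them for 5 (background 6.87% and 20.1%). For siZC3H4 these counts were 87 and 6 (background 5.18% and 18.1%). Since the siNT reads chose the members, these counts describe them and test nothing about them. With the RNA and gDNA of a culture fitted as a block, 18 members were called lower and 0 higher with siWDR82 (background 1.68% and 1.44%), and 2 lower and 0 higher with siZC3H4 (background 0.0716% and 0.325%). siNT replicate 1 stood apart for these counts. Without it, 28 members were called lower with siWDR82 (background 0.371%) and 40 with siZC3H4 (background 0.657%). Leaving out any siWDR82 replicate gave 0 calls with siWDR82 and leaving out siNT replicate 3 gave 1. For siZC3H4, leaving out siZC3H4 replicate 1 or 2 gave 0 calls, and leaving out siNT replicate 2 or 3 gave 2. Except without siNT replicate 1, the share of all inserts called is not given for fits that leave out a replicate. Those counts therefore show nothing particular to the members. DESeq2 called 17 lower and 1 higher with siWDR82 (background 1.18% and 1.91%), and 19 lower and 1 higher with siZC3H4 (background 0.418% and 1.31%).

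The members called lower with siWDR82 carry neighbouring numbers. sequence_15182 had 23466, 15853 and 21283 RNA reads in siNT and 10626, 7876 and 8329 with siWDR82. The gDNA reads were 284, 220 and 378 for siNT and 415, 124 and 198 for siWDR82. On the level scale it went from 4.39, 4.26 and 3.80 to 2.29, 3.03 and 2.26, with no overlap (log2 change -1.96, SE 0.43, edgeR adjusted p = 0.0368; adjusted p = 0.013 when the culture was a block). With siZC3H4 its levels were 3.48, 3.94 and 3.16, overlapping siNT, and the log2 change of -0.92 was not called (edgeR adjusted p = 0.518). sequence_15181 had 6894, 3009 and 9698 RNA reads in siNT. It had 551, 358 and 365 in the siWDR82 cultures and 1475, 2560 and 3865 in the siZC3H4 cultures. Its siWDR82 cultures were the lowest and its siZC3H4 cultures lay between, with a log2 change of -3.68 (SE 0.75, edgeR adjusted p = 0.0223) and -1.95 (adjusted p = 0.369). The sources used here do not say whether inserts of adjacent number share sequence.

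The call with siZC3H4 rested on gDNA. sequence_13642 had 5683, 8045 and 12565 RNA reads in siNT and 4288, 2521 and 6657 with siZC3H4, while its gDNA reads were 9, 2 and 0 against 88, 119 and 13. Its log2 change was -5.78 (SE 0.92, edgeR adjusted p = 0.00516) for RNA over gDNA, but -1.29 for RNA alone (edgeR adjusted p = 0.145). Over each group its gDNA reads summed to 11 in siNT, 24 with siWDR82 and 220 with siZC3H4. It thus met the gDNA minimum only through the siZC3H4 libraries, and its change and p describe it and test nothing. Next by p was sequence_12527, with 7041, 7276 and 10297 RNA reads on 17, 17 and 1 gDNA reads in siNT and 3888, 2863 and 5538 on 105, 27 and 20 with siZC3H4. Its log2 change of -3.67 was not called (edgeR adjusted p = 0.0574). It too met the gDNA minimum only through siZC3H4, with 35, 65 and 152 gDNA reads in siNT, siWDR82 and siZC3H4.

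A few members ran the other way without being called. sequence_12787, the member with the lowest siNT level, went from 1, 45 and 39 RNA reads to 386, 127 and 294 in the siWDR82 cultures and 488, 309 and 333 in the siZC3H4 cultures. Its levels were -2.16, -3.38 and -1.63, and -0.46, -1.95 and -2.37, all above its siNT levels (log2 change 2.77, edgeR adjusted p = 0.363, and 3.49, adjusted p = 0.359). sequence_13828 had the lowest p of those higher with siWDR82, but it had 6, 0 and 177 siNT gDNA reads and 0 in all 3 siWDR82 libraries, so its ratio there has no measured denominator.

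The best measured members, those with the most gDNA reads, had unequal fitted changes, but differences between members were not tested. sequence_12521, with 717 to 3037 gDNA reads per library, had levels of 2.12, 2.45 and 3.03 in siNT, 0.86, 1.52 and 1.72 in the siWDR82 cultures, and 1.22, 1.30 and 2.21 in the siZC3H4 cultures. Its siWDR82 cultures did not overlap siNT (log2 change -1.43, SE 0.35, edgeR adjusted p = 0.0686; 0.0428 when the culture was a block), and its siZC3H4 cultures did (-1.17, adjusted p = 0.223). sequence_08526 had siNT levels of 1.56, 0.85 and 0.96 against 0.09, 0.25 and 0.62 with siWDR82 (log2 change -1.05, SE 0.38, edgeR adjusted p = 0.228, or 0.0485 with the block). By contrast, sequence_12775 overlapped in all groups, with means of -0.69 ± 0.55 in siNT, -0.78 ± 0.13 with siWDR82 and -1.12 ± 0.43 with siZC3H4. sequence_13001 stayed between -1.50 and -0.54 in all 9 cultures, with log2 changes of -0.09 (SE 0.43) and 0.08 (SE 0.43). sequence_12881 had changes of -0.67 (SE 0.56) and 0.02 (SE 0.56), and its siNT levels of -0.89, 0.89 and 0.77 spanned those of the other groups but for its siZC3H4 replicate 3 and siWDR82 replicate 1.

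The gDNA reads of the members moved with the groups, and so are given beside the change. Their median gDNA level was 20.8, 12.3 and 9.01 CPM in siNT, 16.6, 14.0 and 15.7 CPM in the siWDR82 cultures, and 23.8, 26.6 and 19.3 CPM in the siZC3H4 cultures. siNT replicate 1 thus held gDNA in the range of the siZC3H4 cultures, and the other siNT cultures were the lowest of all 9. In the inserts without a spliced form listed, the medians in the 9 cultures stayed within 48.3 to 50.5 CPM. An edgeR fit of gDNA alone gave the members a median log2 change of 0.20 with siWDR82 and 0.46 with siZC3H4, against -0.0076 and -0.036 for all inserts. It called 0 members with either siRNA (background 0%). At an unadjusted p under 0.05 there were 9 higher and 8 lower with siWDR82 (background 1.82% and 2.02%), and 46 higher and 8 lower with siZC3H4 (background 3.22% and 2.81%). DESeq2 and limma were not run on gDNA alone.

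RNA alone, without gDNA, was also lower in the medians. The median RNA level of the members was 47.5, 43.5 and 44.3 CPM in siNT, 29.1, 30.9 and 34.7 CPM in the siWDR82 cultures, and 31.2, 41.5 and 36.5 CPM in the siZC3H4 cultures. All knockdown cultures were below all siNT cultures on this scale too, and siZC3H4 replicate 2 came closest. The median log2 change of RNA alone was -0.95 with siWDR82 and -0.70 with siZC3H4 (0.035 and 0.026 for all inserts), so the gDNA entered more into the siZC3H4 value. On RNA alone edgeR called 47 members lower with siWDR82 (background 2.82%) and 2 with siZC3H4 (background 0.0325%). The siNT RNA reads in this fit are those that chose the members. Its medians and counts therefore describe the members and test nothing about them.

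The decrease was similar in members with many and with few gDNA reads for siWDR82, and less so for siZC3H4. In the 106 members with a mean gDNA count of 300 or more, the median log2 change of total RNA over gDNA was -1.06 with siWDR82 and -1.04 with siZC3H4, with gDNA changes of 0.053 and 0.21. In the 137 members with 100 to under 300 it was -0.99 and -1.21. In the 119 members under 100 it was -1.20 and -1.64, with gDNA changes of 0.23 and 1.05. The siZC3H4 value thus differed most where the gDNA was thinnest and had itself moved. The split by gDNA count was chosen after seeing the data.

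To measure siNT in RNA reads that did not choose the members, the rule was applied to 2 siNT cultures at a time. The minimum was 40 RNA reads, and the level was read in the siNT culture left out. The gDNA minimum still used all 9 gDNA libraries, that of the left-out culture included. The choices gave 355, 371 and 376 members, of which 336 to 345 were among the 362. The median total RNA level in the left-out siNT culture was 1.21, 1.49 and 1.92. Against it, the siWDR82 cultures were lower by 0.42, 0.72 and 1.26, so the change was -0.80 ± 0.43 (n = 3 left-out cultures). The siZC3H4 cultures gave a change of -1.01 ± 0.38, with single values of -0.66, -0.95 and -1.42. The decrease was present with each siNT culture left out, was smallest against replicate 1 and was largest against replicate 3. In these left-out cultures median RNA was 45.5, 40.9 and 40.3 CPM and median gDNA 21.4, 13.5 and 9.36 CPM. On average RNA was 42.2 CPM in the left-out siNT culture, 30.5 with siWDR82 and 35.6 with siZC3H4. The gDNA was 14.8, 16.3 and 23.6 CPM in the same order. Both RNA and gDNA thus entered the change, and the part of gDNA in its order was not tested. The 3 values share the knockdown cultures, so they are not independent.

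Members with a higher siNT level of total RNA over gDNA showed a larger decrease. Each siNT culture in turn ranked the members, and changes were measured from the remaining siNT cultures. The lowest, middle and highest groups of equal size had siNT levels of 0.24, 1.50 and 3.18 in the cultures not used for ranking. Their changes were -0.53 ± 0.24, -0.71 ± 0.32 and -1.18 ± 0.23 with siWDR82 (n = 3 rankings). With siZC3H4 they were -0.60 ± 0.31, -0.88 ± 0.18 and -1.51 ± 0.15. The 3 rankings share siNT and knockdown cultures, so they are not independent. The members ranked were themselves chosen with all 3 siNT cultures. A high siNT level also went with thin gDNA. The median siNT level was 2.25 ± 0.80 in members with a mean gDNA count under 100 and 1.25 ± 0.15 in those with 300 or more. The part of gDNA in the order of the ranked groups was not tested. Members with a siNT spliced share of 97% or more (n = 149) had median fitted changes of -1.20 and -1.48, and those under 90% (n = 80) -0.85 and -0.90. The first of these sets also had the lower gDNA, with a siNT median of 6.83 ± 5.2 CPM against 18.2 ± 5.8 CPM, and the part of gDNA in this order was not tested.

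The decrease did not hold on every scale. Scaled to spike-in reads instead of insert reads, the members' median change was 0.22 with siWDR82 and -0.19 with siZC3H4, while all inserts had 1.34 and 1.03. The members lay below all inserts by 1.12 and 1.22 on that scale, by 1.11 and 1.24 in the main fit and by 1.10 and 1.23 with library totals. The lower RNA of the members is therefore relative to the other inserts, and an absolute decrease is not shown.

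Spliced RNA, which makes up nearly all RNA of these inserts, followed the total. Its median level over gDNA was 1.20, 1.36 and 1.94 in siNT, 0.54, 0.58 and 0.92 in the siWDR82 cultures, and 0.30, 0.35 and 0.71 in the siZC3H4 cultures. No knockdown culture reached the lowest siNT culture. The median fitted log2 change was -1.15 with siWDR82 and -1.27 with siZC3H4, against -0.89 and -0.63 for the 1795 inserts with enough spliced reads. edgeR called 0 members with siWDR82 (background 0.0557% lower and 0.279% higher). At an unadjusted p under 0.05 there were 51 of 362 lower and 2 higher (background 14.2% and 5.46%), so the share lower was near the background. Of the 384 partly spliced inserts, 63 were lower and 0 higher at that p with siWDR82. Their median change was -0.93 with siWDR82 and -0.65 with siZC3H4. The decrease of spliced RNA with siWDR82 was thus not particular to the members. The fit with a culture block also called 0 with siWDR82. With siZC3H4 it called 1 lower, sequence_13642 (log2 change -5.79, edgeR adjusted p = 0.0294, but 0.247 with the block), and 0 higher (background 0.0557% and 0.334%; at an unadjusted p under 0.05, 75 lower and 3 higher, background 10.4% and 5.79%). As for total RNA, sequence_13642 met the gDNA minimum only through the siZC3H4 libraries, so this call tests nothing. Without siNT replicate 1, 26 members were called lower with siWDR82 (background 2.56%) and 47 with siZC3H4 (background 4.46%). Against a siNT culture left out of the choice, spliced RNA differed by -0.51, -0.62 and -1.31 with siWDR82 and by -0.74, -0.81 and -1.46 with siZC3H4.

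Unspliced RNA of the members was low in all groups and varied most between the siNT cultures. Of the 362 members, 338 had enough unspliced reads to be tested. Their median level over gDNA was -3.31, -2.25 and -1.99 in siNT, -3.02, -2.93 and -2.78 in the siWDR82 cultures, and -3.48, -3.39 and -3.04 in the siZC3H4 cultures. siNT replicate 1 lay within the knockdown range, so the groups overlapped, although the other siNT cultures were higher than all 6. The median fitted change was -0.75 with siWDR82 and -0.89 with siZC3H4, and without single replicates the siWDR82 value ran from -1.19 to -0.30. Against a siNT culture left out of the choice it was 0.19, -0.77 and -0.91 for siWDR82, and for siZC3H4 -0.17, -1.09 and -1.29. The difference of unspliced RNA with siWDR82 was therefore within the spread between siNT cultures. edgeR called 1 member higher and 0 lower with siWDR82 (background 0.568% and 0.0457%), with 22 higher and 31 lower at an unadjusted p under 0.05 (background 7.31% and 5.07%). With siZC3H4 it called 0 (background 0.326% higher and 0.013% lower), also with a culture block. At an unadjusted p under 0.05 there were 21 higher and 39 lower with siZC3H4 (background 6.05% and 3.04%).

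The member called higher in unspliced RNA was sequence_12787. It had 0 unspliced reads in all 3 siNT cultures, 123, 38 and 83 with siWDR82, and 0, 0 and 1 with siZC3H4. Its spliced percent was 100 in siNT, 68.1, 70.1 and 71.8 in the siWDR82 cultures, and 100, 100 and 99.7 in the siZC3H4 cultures. Unspliced reads over gDNA were at least 69.6-fold higher with siWDR82 against a floor of 3 reads over the siNT group (edgeR adjusted p = 0.0126; 0.028 when the culture was a block). The rule chose members for few unspliced siNT reads, and this one passed the minimum of 5 unspliced reads on average only through its siWDR82 reads. Its fold and p therefore describe it and test nothing. The call was lost without any one of the siWDR82 replicates. The direct comparison of the siRNAs did not call it (edgeR adjusted p = 1 for unspliced RNA over gDNA).

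Other members had more unspliced reads with both siRNAs. sequence_03106 had 0, 0 and 2 unspliced reads in siNT, but 316, 232 and 159 in the siWDR82 cultures and 169, 386 and 92 in the siZC3H4 cultures. Its spliced reads were 78, 0 and 151 in siNT, 227, 208 and 157 in siWDR82 cultures and 173, 260 and 63 after siZC3H4. Fewer than 51% of its reads were spliced in each knockdown culture, at 41.8%, 47.3% and 49.7% and at 50.6%, 40.2% and 40.6%. Unspliced reads over gDNA were 178-fold higher with siWDR82 (95% counting interval 49.2 to 1476; edgeR adjusted p = 0.0569, or 0.0423 with the block) and 183-fold higher with siZC3H4 (50.6 to 1518; edgeR adjusted p = 0.0635). sequence_12579 went from 0, 1 and 0 unspliced reads to 350, 27 and 101 in the siWDR82 cultures and 128, 213 and 77 in the siZC3H4 cultures. Its spliced percent was at least 99.7 in each siNT culture, 78.5, 92.8 and 83.7 in the siWDR82 cultures and 87.0, 76.1 and 85.9 in the siZC3H4 cultures. These members had very few unspliced siNT reads because the rule asks for a high siNT spliced share. They also had the lowest p among 338. Like sequence_12787, both passed the minimum of unspliced reads on average only through their knockdown reads. Their folds, intervals and p therefore describe them and test nothing.

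Within the RNA, the spliced share of the members was slightly lower with siWDR82, and with siZC3H4 this depended on the measure. The pooled spliced percent of all their reads was 95.5, 94.3 and 94.8 in siNT, 92.7, 92.9 and 93.2 in the siWDR82 cultures, and 93.4, 94.2 and 94.4 in the siZC3H4 cultures. The siWDR82 cultures were the lowest without overlap, at 92.9 ± 0.25, and the siZC3H4 cultures (94.0 ± 0.51) overlapped siNT (94.9 ± 0.59). The unspliced share was thus 5.12% in siNT, 7.09% with siWDR82 (1.39 times siNT) and 6.02% with siZC3H4 (1.18 times). In pooled percentage points the partly spliced inserts had a larger decrease, from 51.9 ± 3.1% to 43.0 ± 1.7% and 48.4 ± 2.5%. As a ratio the order was the reverse, since their unspliced share was 1.18 and 1.07 times that of siNT. Against a siNT culture left out of the choice, the change of the members was -2.34, -0.94 and -2.03 percentage points with siWDR82, and -1.23, 0.30 and -0.91 points with siZC3H4. The direction of this pooled measure was therefore the same in 3 of 3 left-out cultures with siWDR82 and in 2 of 3 with siZC3H4. The pooled percent weights members by their reads. The median percent over members was 98.64, 97.12 and 97.02 in siNT, 96.1, 96.4 and 95.6 in the siWDR82 cultures, and 95.6, 95.8 and 96.0 in the siZC3H4 cultures. By this measure both siRNAs lay below every siNT culture. Against the siNT culture left out it differed by -1.43, -0.052 and -0.42 points for siWDR82, and for siZC3H4 by -1.69, -0.29 and -0.75 points, lower in 3 of 3 for each.

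Per member, the edgeR ratio of spliced to unspliced reads, with the RNA library as a block, had a median log2 change of -0.70 with siWDR82 and -0.47 with siZC3H4. All 1804 inserts with enough reads of both forms had -0.32 and -0.030. The fit called 0 of 338 members with either siRNA (background 0.111% higher and 0% lower with siWDR82, 0.166% and 0% with siZC3H4). At an unadjusted p under 0.05 there were 23 lower and 3 higher with siWDR82 (background 4.1% and 2.22%) and 17 lower and 3 higher with siZC3H4 (background 2.33% and 1.83%). The fit without the block also called 0. The rule chose the members by this same spliced share in siNT. The medians and counts against siNT therefore describe the members and test nothing about them. The lowest adjusted p in the edgeR fit was 0.405 with siWDR82 and 0.379 with siZC3H4, both for sequence_12579. In the opposite direction, sequence_12809 had 176, 87 and 112 unspliced reads in siNT against 0, 2 and 0 with siWDR82 and 119, 39 and 1 with siZC3H4. Its siWDR82 cultures thus had at most 2 unspliced reads each, about as few as siZC3H4 replicate 3 (siWDR82 against siNT, edgeR adjusted p = 0.741).

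The 40 members without an unspliced siNT read show how far this measure depends on the choice. They had 0 unspliced of 134572 siNT reads because they were picked for it, so this 0 sets no limit on their share. With siWDR82 3237 of 81976 reads (3.95%) were unspliced, and with siZC3H4 3062 of 98853 (3.10%). Unspliced reads appeared in 25 of the 40 with siWDR82 and in 26 with siZC3H4, and without the insert that had most, 1716 and 2168 reads remained. When members were instead picked for having no unspliced read in 2 siNT cultures, 57, 57 and 65 qualified. The siNT culture left out then held 1.82%, 1.80% and 1.63% unspliced reads in them. The siWDR82 cultures held 2.77%, 3.96% and 3.80% on average and the siZC3H4 cultures 2.32%, 3.52% and 4.31%. The lowest knockdown culture, at 2.03%, was still above the left-out siNT culture in each of these sets. Thus 17, 17 and 25 of these members had unspliced reads in the left-out siNT culture, and a count of 0 in siNT overstates the contrast. This set was added after seeing the data.

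siZC3H4 and siWDR82 could be compared without the siNT reads that chose the members, although their gDNA libraries also counted toward the gDNA minimum. The median log2 change of total RNA over gDNA, siZC3H4 relative to siWDR82, was -0.14 over the members and 0.0069 over all inserts. RNA alone gave 0.24 and gDNA alone 0.38. For gDNA alone edgeR called 0 members (background 0%), with 12 higher and 3 lower at an unadjusted p under 0.05 (background 1.53% and 1.97%). Thus the sign of the difference depended on the gDNA, and in the 106 members with a mean gDNA count of 300 or more it was 0.052. The culture medians of total RNA overlapped, at 0.66 to 0.97 with siWDR82 and 0.42 to 0.82 with siZC3H4. edgeR called 0 members (background 0%), with 7 higher and 4 lower at an unadjusted p under 0.05 (background 1.13% and 0.775%). The fit with the culture as a block and limma also called 0, and DESeq2 called 1 higher (background 0.117%). All 3 siZC3H4 cultures lay above all 3 siWDR82 cultures for 22 members and below for 36 (background 7.04% and 7.5%), which is 6.08% and 9.94% of the members.

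The members with the lowest p in this comparison again differed in gDNA. sequence_12716 had 5437, 7050 and 5215 RNA reads with siWDR82 and 3748, 3844 and 11079 with siZC3H4, on 164, 58 and 33 against 7, 5 and 31 gDNA reads (log2 change 2.49, SE 0.88, edgeR adjusted p = 1). sequence_13711 had 74, 25 and 29 gDNA reads in the siWDR82 libraries, but 1, 4 and 0 in those of siZC3H4. In the other direction, sequence_12548 had 2582, 2436 and 2863 RNA reads with siWDR82 and 1741, 1743 and 2656 with siZC3H4, on 66, 24 and 25 against 302, 431 and 45 gDNA reads (log2 change -2.50, SE 1.05, edgeR adjusted p = 1). The RNA reads of these members differed far less than their gDNA reads.

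The forms compared between the siRNAs as follows. Spliced RNA over gDNA had a median change of -0.089 over the members and 0.23 over the 1795 inserts tested, and unspliced RNA over gDNA -0.32 and 0.00059. edgeR called 0 members for spliced RNA (background 0.167% higher and 0.0557% lower), with 6 higher and 3 lower at an unadjusted p under 0.05 (background 3.73% and 1.73%). It called 0 for unspliced RNA (background 0%), with 5 higher and 5 lower at an unadjusted p under 0.05 (background 1.13% and 0.828%). With a culture block the count was 0 for both. The spliced percent was above that of every siWDR82 culture in all 3 siZC3H4 cultures for the pooled reads, by 1.06 percentage points on average. The median over single members did not follow, at 95.8% with siZC3H4 and 96.0% with siWDR82, a difference of -0.25 points, and these cultures overlapped. The median change of the spliced-to-unspliced ratio was 0.15 over the members and 0.24 over the 1804 inserts. It was 0.044 without siWDR82 replicate 3 and 0.051 without siZC3H4 replicate 3. edgeR called 0 members (background 0%), with 10 higher and 2 lower at an unadjusted p under 0.05 (background 1.88% and 0.721%). With 3 cultures per group, a p that misses the threshold does not show that the siRNAs act alike.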

How the data were processed

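INSERT-seq of mouse embryonic stem cells was used as deposited. By the labels' protocols, PCR amplified the insert locus from gDNA, and RNA was reverse transcribed from mKate2. The tools were STAR, SAMtools, Bowtie2 2.3.4.3 and cutadapt 1.14, and the build mm10, per the submitters' processing notes. The sources used here do not say which of these made each table. The values are raw counts of reads as deposited by the authors, without normalization. Columns were matched to samples by name.

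The members, lists and tests were chosen with earlier results of these data known. edgeR 4.0.16 (R 4.3.3) quasi-likelihood fits used all 18 libraries with 6 group means and TMM factors within RNA and within gDNA, and were tested on simulated data. Inserts needed means of 20 gDNA and 5 RNA reads; the ratio of forms needed 5 reads of each. P-values were adjusted by Benjamini-Hochberg over all inserts fitted (threshold 0.05). Alternatives included limma 3.58.1 and DESeq2 1.42.0.

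RNA and gDNA of a culture deviated together (r across inserts 0.29 to 0.47 in 9 of 9), so they are pairs. The main fits of RNA over gDNA left this pairing out, and the fits with the culture as a block used it. Replicates were not duplicates (chi-square per degree of freedom at least 32.3). Named members had, per comparison, the lowest p in each direction, the most gDNA reads, the highest or lowest siNT level, or a share nearest 80%. Not all that this rule selects are printed.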

Additional observations from a re-analysis of the deposited data

How the results depend on the processing

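The members' median change with either siRNA against siNT kept its direction for total and spliced RNA under every alternative run except spike-in scaling. Spike-in scaling gave 0.22 (total), 0.14 (spliced) and 0.48 (unspliced RNA) with siWDR82, -0.19, -0.26 and 0.012 with siZC3H4, and -0.39, -0.37 and -0.59 for siZC3H4 against siWDR82. It called 0 members lower in total RNA with siWDR82 and 0 lower in spliced RNA with siZC3H4, and 8 and 2 higher in unspliced RNA with siWDR82 and siZC3H4. Library totals called 1 lower in total RNA with siWDR82, and 3 and 1 higher in unspliced RNA. The share of all inserts called is not given for either scaling, so these counts show nothing particular to the members. Under spike-in scaling the median unspliced change of all inserts was 1.35 with siWDR82 and 1.04 with siZC3H4. Calls of lower total RNA with siWDR82 and siZC3H4 numbered 17 and 19 by DESeq2 (1.18% and 0.418% of all inserts), which also called 1 higher in each of the 3 comparisons, 0 and 0 by limma, and 47 and 2 for RNA alone (2.82% and 0.0325% of all inserts). RNA alone had a median of -0.70 with siZC3H4 and 0.24 for siZC3H4 against siWDR82. Members with a mean gDNA count of 300 or more gave 0.052 (total) and 0.071 (spliced) for that comparison, and -0.16 for the ratio of forms with siZC3H4. Members chosen in 2 siNT cultures gave -0.81 for spliced RNA with siWDR82. A spliced share of 70% or more changed the pooled spliced percent by -2.83 and -1.57 points, and one of 90% or more by -1.21 with siWDR82. The causes were not tested.

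With the culture as a replicate block, 18 and 2 members were called lower in total RNA (1.68% and 0.0716% of all inserts). That block also gave 0 lower in spliced RNA with siZC3H4 (0 of 1795 inserts). It gave 2 higher in unspliced RNA with siWDR82 (217 of 15330 inserts), sequence_03106 and sequence_12787. Both passed the minimum of unspliced reads only through their knockdown reads, so this count tests nothing. The ratio of forms without a replicate block had a median of -0.35 with siWDR82. Set numbers 1 to 3 did not pair the samples (r from 0.02 to 0.14 in RNA, over 0.1 in 2 of 9, and from -0.0041 to 0.20 in gDNA, over 0.1 in 4 of 9). As a replicate block they gave 2 and 2 members lower in spliced RNA, and 0 higher in unspliced RNA with siWDR82. The share of all inserts called is not given for the set-number block.

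Leaving out single replicates gave 0 to 28 members lower in total RNA with siWDR82, 0 to 40 lower and 0 to 1 higher with siZC3H4, and medians of -1.38 to -0.82 with siWDR82. In spliced RNA it gave 0 to 26 lower with siWDR82, 0 to 47 lower and 0 to 1 higher with siZC3H4, and 0 to 1 higher between the siRNAs. In unspliced RNA it gave 0 to 5 higher and 0 to 2 lower with siWDR82, 0 to 4 and 0 to 6 with siZC3H4, and a median of -0.41 to 0.0062 between the siRNAs. For the ratio of forms it gave 0 to 1 lower with siWDR82 and medians of 0.044 to 0.24 between the siRNAs. Among these fits, the share of all inserts called is given only without siNT replicate 1, for total and spliced RNA. The other counts therefore show nothing particular to the members. Low gDNA counts limit single members, and members with many gDNA reads also varied between siNT cultures (SD 0.99 for the level of sequence_12881).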
